A study of Mus musculus with 3 samples.

Results

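Calb2, Chga, Cartpt, Fstl5, Gfy, Uchl1, Nsg1 and Fetub were 8 of the 32285 genes measured by single cell RNA-sequencing in the mouse vomeronasal organ (VNO). They had been chosen by their measured UMI levels in these same libraries, among the genes that led mature vomeronasal sensory neurons (VSNs), so their high level in mature VSNs is given below as a description and carries no test. There were 3 libraries of male mice on a mixed C57 BL/6J and 129P2/OlaHsd background, 1 for each group: OMPCre heterozygotes at postnatal day (P) 10 (P10 control), OMPCreR26AP2e double heterozygotes at P10 (P10 mutant) and OMPCreR26AP2e double heterozygotes at 3 months (3-month mutant). All 3 groups carry OMPCre, in which the Omp locus, active as VSNs mature, drives Cre. The mutants carry in addition a Rosa26 allele that expresses Tfap2e, the gene of the transcription factor AP-2ε, after Cre recombination. How many mice went into each library is not given in the sources used here. Each group was 1 library, so the effects of genotype (at P10) or age (in the mutants) and of the library cannot be told apart. No difference between groups was therefore tested, and the intervals below cover counting error only.

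VSNs line the sensory epithelium of the VNO and detect pheromones. Apical VSNs express receptors of the V1R family with the G protein subunit Gαi2 (Gnai2), and basal VSNs express V2R receptors with Gαo (Gnao1) and, in normal mice, AP-2ε. Newly formed neurons pass from Neurog1 and Neurod1 positive precursors through an immature stage with Gap43 to the mature stage with Omp. Of the 8 genes, Chga (chromogranin A, a core protein of dense-core secretory granules), Cartpt (the precursor of the CART neuropeptides), Fstl5 (follistatin-like 5, a predicted secreted glycoprotein) and Fetub (fetuin-B, a secreted inhibitor of astacin-type proteases) encode secreted proteins. Gfy (golgi associated olfactory signaling regulator) encodes a Golgi protein of olfactory neurons. Calb2 (calretinin) encodes an EF-hand calcium-binding protein of the cytosol. The other two are neither secretory nor calcium-binding: Uchl1 is a neuronal ubiquitin C-terminal hydrolase, and Nsg1 is a membrane protein of neuronal endosomes that takes part in receptor trafficking.

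In GRCm38 the 8 genes lie on 7 chromosomes, and all 8 are annotated as protein-coding. Calb2 lies at chr8:110137502-110168210 on the minus strand, Chga at chr12:102554969-102565028 on the plus strand, Cartpt at chr13:99898489-99901091 on the minus strand and Fstl5 at chr3:76074270-76710019 on the plus strand. Gfy lies at chr7:45176349-45179569 on the minus strand and Fetub at chr16:22918334-22939778 on the plus strand. Uchl1 (chr5:66676091-66687234, plus strand) and Nsg1 (chr5:38137192-38159907, minus strand) share a chromosome.

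RefSeq promoter windows (GRCm38.p6, 250 bases before to 50 bases after an annotated start) were at hand for 6 of the 8 genes, as 8 windows, with none for Calb2 and Nsg1. The 4 windows shown are those of Chga (chr12:102554691-102554990, plus strand) and Gfy (chr7:45179548-45179847, minus strand), whose levels followed each other most closely of all pairs, of Cartpt (chr13:99900634-99900933, minus strand), the neuropeptide gene, and of the first start of Fetub (chr16:22918132-22918431, plus strand), which was least like Nsg1. They run 5′ to 3′ in the direction of transcription, and capitals mark the motifs found.
Chga: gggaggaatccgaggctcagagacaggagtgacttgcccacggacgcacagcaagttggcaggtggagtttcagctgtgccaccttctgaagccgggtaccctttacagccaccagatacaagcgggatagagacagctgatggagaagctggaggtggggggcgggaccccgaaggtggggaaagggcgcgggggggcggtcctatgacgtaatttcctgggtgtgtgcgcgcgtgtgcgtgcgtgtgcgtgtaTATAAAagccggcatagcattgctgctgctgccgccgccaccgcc
Gfy: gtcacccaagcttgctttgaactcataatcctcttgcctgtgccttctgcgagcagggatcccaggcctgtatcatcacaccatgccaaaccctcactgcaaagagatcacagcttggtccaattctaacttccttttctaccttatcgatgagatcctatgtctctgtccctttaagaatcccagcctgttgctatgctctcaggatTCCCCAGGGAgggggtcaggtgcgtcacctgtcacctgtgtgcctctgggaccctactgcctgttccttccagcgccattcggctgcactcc
Cartpt: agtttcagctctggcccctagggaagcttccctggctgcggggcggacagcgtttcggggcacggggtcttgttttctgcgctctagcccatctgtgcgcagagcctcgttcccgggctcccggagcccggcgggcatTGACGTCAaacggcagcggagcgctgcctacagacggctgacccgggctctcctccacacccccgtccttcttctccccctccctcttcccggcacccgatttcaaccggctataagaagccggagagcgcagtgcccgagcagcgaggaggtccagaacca
Fetub: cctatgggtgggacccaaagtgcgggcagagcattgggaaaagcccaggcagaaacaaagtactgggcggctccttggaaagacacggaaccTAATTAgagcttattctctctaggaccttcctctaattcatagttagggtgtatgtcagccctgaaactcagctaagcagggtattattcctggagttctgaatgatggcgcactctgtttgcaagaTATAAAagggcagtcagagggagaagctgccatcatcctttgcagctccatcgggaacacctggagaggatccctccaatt
The motifs searched on both strands were GCCNNNGGC (AP-2), TCCC and GGGA spaced by 2 bases (EBF), TAATTA (homeodomain), TGACGTCA (cyclic AMP response element) and TATAAA (core promoter box), none of which contains another. The AP-2 pattern was in none of the 8 windows, against 16.6% of all 32851 windows. The EBF pattern was in the Gfy window at position -42 from the start (0.904% of all windows) and the cyclic AMP response element was in the Cartpt window at -112 (1.79%). The Fetub window held TAATTA at -158 (5.29%) and TATAAA at -31, TATAAA stood at position 6 from the RefSeq start of Chga, and the first Fstl5 window held it on the reverse strand at -243 (13.6% of all windows). The RefSeq start of Chga and this match both lie upstream of the gene start given above, which is from another annotation. These matches describe the letters of the windows only.

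After barcodes with 200 to 9000 genes and at most 10% mitochondrial UMIs (unique molecular identifiers, 1 for each captured transcript) were kept, the P10 control, P10 mutant and 3-month mutant libraries held 4795, 3956 and 6960 cells with median depths of 10236, 10766.5 and 5010.5 UMIs. Mature VSNs whose receptor UMIs were at least 80% of one family were called V1R-dominant (109, 38 and 32 cells in that order of libraries) or V2R-dominant (26, 14 and 65 cells), and immature VSNs numbered 316, 140 and 80. The defining genes followed these names in the P10 control, where Gnao1 was 32.1 times as high in V2R-dominant as in V1R-dominant VSNs and Gnai2 0.0959 times. In mutants at P10 this contrast was smaller, at 4.08 times for Gnao1 and 0.485 times for Gnai2, and at 3 months it stood at 10.1 and 0.112 times. Tfap2e checked the genotype labels: V1R-dominant VSNs held 1 Tfap2e UMI in 109 control cells, 507 in 38 cells of mutants at P10 and 113 in 32 cells at 3 months. Cells other than neurons also held Tfap2e in the mutants, with a UMI in 313 of 1929 immune, stromal and endothelial cells at P10 and 251 of 3475 at 3 months against 7 of 1830 in the control. Several features of the libraries moved with the groups. The 3-month V1R-dominant and V2R-dominant VSNs had median depths of 5682.5 and 4195 UMIs against 19426 to 25447 at P10, and the header of that matrix names another Cell Ranger release (6.0.1) than those at P10 (4.0.0). Markers of other cell types (154 genes) took 0.403 to 0.582% of the UMIs of the 3 VSN sets at 3 months against 0.0817 to 0.194% at P10, led by gland genes with a summed level of 2492 to 3939 UMIs per 1000000 (CPM). Most control V1R-dominant VSNs (76 of 109) fell in a sub-cluster that held 5 such cells of mutants at P10 and 0 at 3 months, while 23 of 38 and 16 of 32 mutant cells fell in another that held 0 control cells of that class. Both P10 libraries shared 21 cell barcodes, each shared 26 or 30 with the 3-month library, and 0 of the shared barcodes were VSNs.

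All 8 genes were low in neuronal precursors and higher in V1R-dominant mature VSNs, while Nsg1 in V2R-dominant VSNs was below its immature level in each library. The ratio between the immature and the mature stage differed widely from gene to gene. Levels are CPM, the UMIs of a gene per 1000000 UMIs of the same cells, and are compared within a gene only, since UMIs are read from the 3′ end and are not scaled to length. In the P10 control Fetub was 11.3 times (95% interval 10.2 to 12.54) as high in all mature as in immature VSNs, Cartpt 8.07 times (7.53 to 8.65), Gfy 5.16 times (4.90 to 5.45) and Chga 4.97 times (4.75 to 5.197). The steps of the other 4 genes were smaller, at 2.48 times (2.36 to 2.61) for Nsg1, 1.90 (1.86 to 1.94) for Calb2, 1.72 (1.66 to 1.78) for Fstl5 and 1.31 (1.27 to 1.36) for Uchl1. The fetuin, neuropeptide, Golgi and granule genes thus had larger ratios of mature to immature VSNs than Calb2, Fstl5 and Uchl1, although the ratio of immature VSNs to precursors was larger still for each of these 4 genes in both P10 libraries, such as 84.0 times (40.6 to 209) for Cartpt and 23.4 times (18.2 to 30.5) for Chga in the control. Fetub and Cartpt had the steepest steps in the mutants too, at 11.1 and 6.20 times at P10 and 21.1 and 11.8 times at 3 months. Chga stood at 4.63 and 5.79 times and Gfy at 3.79 and 5.14 times in the same order. At 3 months, with 20 precursors, the ratios of immature VSNs to precursors were the smaller ones for Cartpt, Fetub and Chga, while both ratios of Gfy overlapped in their intervals. These immature over precursor ratios were 1.97 times for Cartpt, 2.57 for Fetub, 3.06 for Chga and 5.03 (3.38 to 7.72) for Gfy, whose mature over immature interval was 4.41 to 6.02. The precursors held only 31, 16, 72 and 29 UMIs of these genes in that order. Nearly all their Calb2 UMIs came from a single cell, as given below, and the part of that cell in the 4 ratios was not tested. For Nsg1 the mutant ratios over all mature VSNs were 1.11 times (1.00 to 1.23) at P10 and 0.814 times (0.684 to 0.971) at 3 months, but mature VSNs mixed V1R-dominant and V2R-dominant cells at 109 to 26, 38 to 14 and 32 to 65 in these libraries. V1R-dominant VSNs alone stood at 2.96, 1.24 and 1.57 times the immature Nsg1 level and V2R-dominant VSNs at 0.498, 0.533 and 0.291 times.

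The immature set held a sub-cluster with olfactory receptor genes among its leading genes (S100a5, Stoml3, Olfr1441, Gap43 and Olfr124 first), with 48 of 316, 27 of 140 and 8 of 80 cells in the same order of libraries. Its leading genes are those of the libraries pooled. In the P10 mutant its cells held Calb2 at 5744 and Cartpt at 721 CPM, against 2452 and 50.9 CPM in 11 immature cells with olfactory receptor UMIs. In the control the 48 cells of the sub-cluster held 1215 of the 2404 immature Nsg1 UMIs and 1001 of the 1746 of Gfy. Without them the control ratios of mature to immature VSNs rose to 9.13 times for Gfy, 10.9 for Cartpt, 6.40 for Chga and 3.79 for Nsg1. This sub-cluster also had the most Omp of those named immature (180 CPM), so leaving it out removed the most Omp-rich immature cells. Without only the control cells with olfactory receptor UMIs, immature Gfy (448 against 490 CPM) and Nsg1 (595 against 674) were lower. Cartpt (293 against 272) and Chga (693 against 682) were not.

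**Figure D1:**
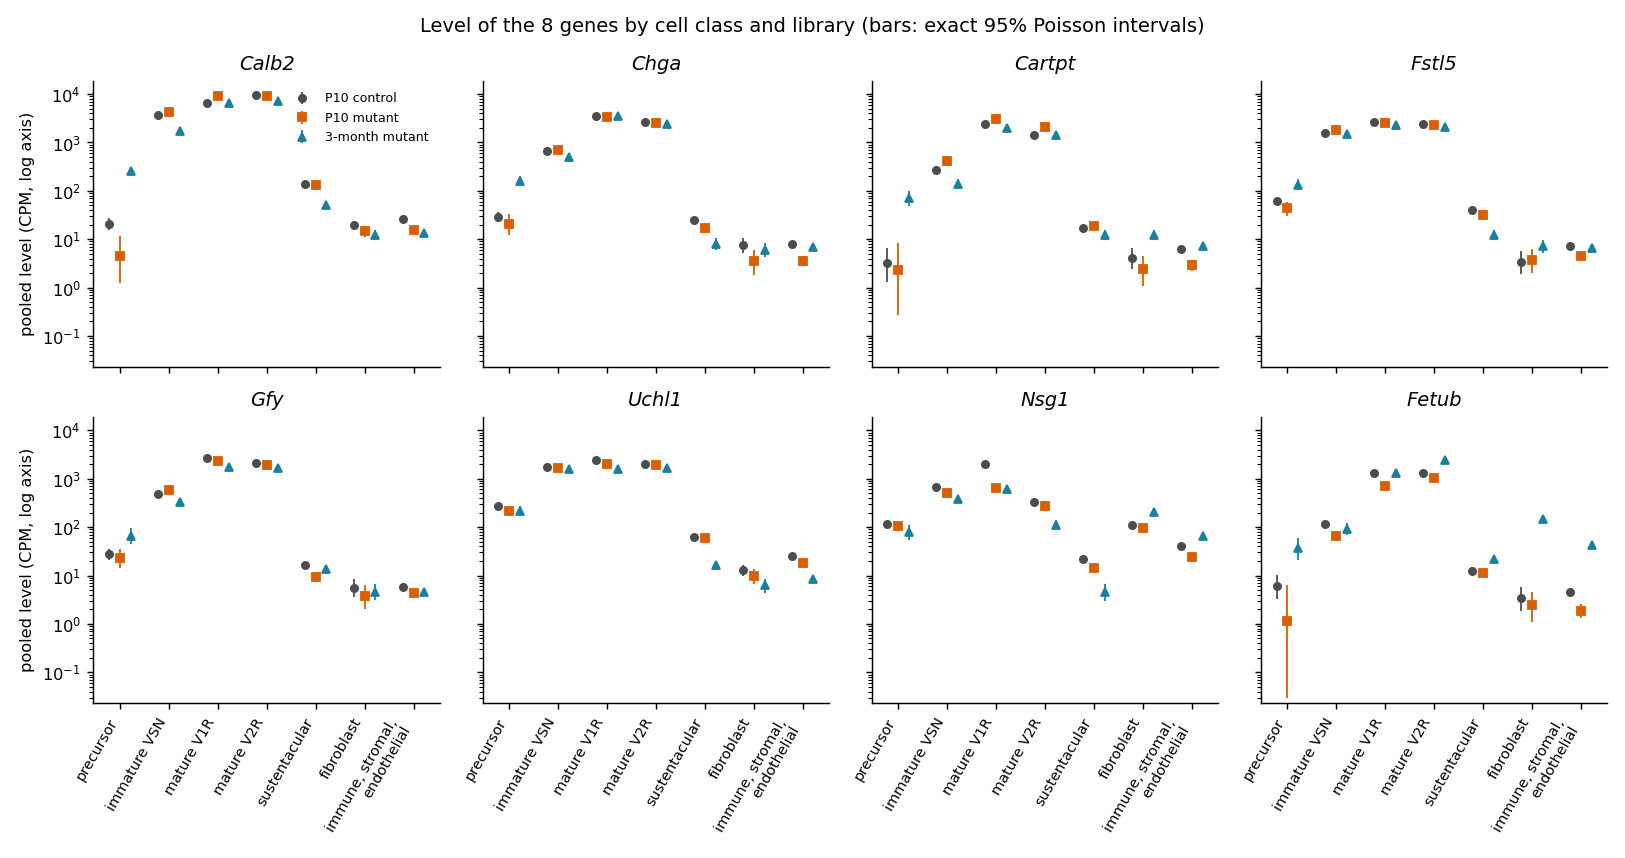
Pooled level of each gene in CPM (log axis) by cell class, with a marker for each library and exact 95% Poisson intervals as bars. Both mature classes stand highest for every gene other than Nsg1, whose control V1R-dominant level of 1994 CPM is far above the other points of its panel.

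Calb2 and Fstl5, the calcium buffer and the follistatin-like protein, had smaller ratios of mature to immature VSNs than Chga, Gfy, Cartpt and Fetub. Immature VSNs were not uniform. In their sub-cluster led by Neurod1 and Sox11, Calb2 stood at only 146, 151 and 111 CPM in the order of libraries. Fstl5 stood at 770, 722 and 909 CPM there. Calb2 stood at 20.8 CPM in control precursors and 4.58 in P10 mutant precursors, at 3778 and 4222 in immature VSNs, and at 6467 and 9176 in V1R-dominant VSNs. In the 3-month mutant its precursor level of 263 CPM rested on 1 cell with 98.3% of the 116 UMIs, and immature and V1R-dominant VSNs stood at 1760 and 6637 CPM. Calb2 was found in every one of the 109 control V1R-dominant VSNs, and after each cell was thinned to 1000 UMIs it remained in 100% of the 102 cells deep enough (exact binomial interval 96.4 to 100%), against 4.67% (2.44 to 8.01%) of macrophages and monocytes. Fstl5 stood at 62.6 CPM in control precursors, 1554 in immature VSNs and 2711 in V1R-dominant VSNs. Its immature level was 1834 CPM in mutants at P10 and 1513 at 3 months.

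Uchl1, the ubiquitin hydrolase, had the lowest ratio of mature to immature VSNs of the 8 genes in the control, while in the P10 mutant its 1.195 times (1.13 to 1.26) was above that of Nsg1. It was already at 279 CPM in control precursors and at 1789 in immature VSNs, against 2470 in V1R-dominant and 2051 in V2R-dominant VSNs. In the 3-month mutant the immature level of 1586 CPM and the mature levels of 1622 (V1R-dominant, interval 1502 to 1748) and 1633 (V2R-dominant, 1536 to 1734) overlapped in their intervals. That immature level rested in part on 9 cells with olfactory receptor UMIs, which held 344 of the 869 Uchl1 UMIs at 2306 CPM, and the other 71 cells stood at 1317 CPM, so that mature VSNs were at 1.23 times (1.11 to 1.35) their level. Thinned to 1000 UMIs, 79.1% (74.0 to 83.6%) of control immature VSNs and 90.2% (82.7 to 95.2%) of V1R-dominant VSNs held Uchl1, against 3.11% (1.35 to 6.04%) of macrophages and monocytes.

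Chga, Gfy, Cartpt and Fetub were the genes with the larger ratios of mature to immature VSNs. Chga stood at 29.2 CPM in control precursors, 682 in immature VSNs, 3599 in V1R-dominant and 2674 in V2R-dominant VSNs. Gfy followed with 27.3, 490, 2663 and 2086 CPM in the same sets. For the secreted pair, Cartpt went from 3.24 CPM (7 UMIs in 101 precursors) to 272 in immature VSNs and Fetub from 6.02 CPM (13 UMIs) to 117. Thinned to 1000 UMIs, 14.4% (10.6 to 18.9%) of control immature VSNs held Cartpt and 86.3% (78.0 to 92.3%) of V1R-dominant VSNs did, while Fetub went from 9.93% (6.75 to 13.95%) to 53.9% (43.8 to 63.8%). The share in macrophages and monocytes was 0.389% (0.00985 to 2.15%) for Cartpt and 0.778% (0.0944 to 2.78%) for Fetub. Median depths behind these shares before thinning were 12320.5 UMIs for immature, 19426 for V1R-dominant VSNs and 7841 for macrophages and monocytes, and unthinned shares were higher, such as 48.4% of immature VSNs for Cartpt.

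Within each library, V2R-dominant and V1R-dominant mature VSNs were then compared. The genes had been chosen from levels in the same cells, so these values are a description. Nsg1 alone of the 8 genes was past 2-fold, and it was lower in V2R-dominant VSNs in each of the 3 libraries. Its level was 1994 CPM (interval 1927 to 2063) in V1R-dominant and 335 (287 to 389) in V2R-dominant VSNs of the P10 control. The same sets stood at 637 (581 to 698) and 275 (220 to 339) CPM in mutants at P10, and at 601 (529 to 680) and 111 (87.2 to 140) CPM at 3 months. The V2R-dominant level was below the V1R-dominant level in each library, and all 3 pairs of intervals were apart. The ratios of V2R-dominant to V1R-dominant VSNs were 0.168 (0.144 to 0.196), 0.431 (0.338 to 0.544) and 0.185 (0.141 to 0.242). Of all genes with at least 50 UMIs in both sets together, 9.2%, 4.17% and 8.08% were past 2-fold in these libraries. The share of 1 in 8 genes was above each of these, most so in the P10 mutant. A count of 1 is the smallest that 8 genes can give beyond none, so no enrichment is read from it. Under classes called from Omp and Gap43 UMIs in place of clusters, the P10 mutant ratio rose to 0.758 and was no longer past 2-fold. Those classes also drew on lineage cells that the clusters had left mixed or unnamed.

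Single cells showed the same separation of Nsg1. Among cells with at least 5000 UMIs, the 75 control V1R-dominant VSNs ranged from 936 to 4180 CPM with a median of 2131, and the 23 V2R-dominant VSNs from 0 to 2356 with a median of 209. Of these V2R-dominant cells 22 lay below the lowest V1R-dominant cell, and 1 cell carried 36.4% of all their Nsg1 UMIs. In the 3-month mutant 28 of 30 V2R-dominant cells (median 47.9 CPM) lay below the lowest of 16 V1R-dominant cells (366 to 1381 CPM, median 645). The P10 mutant sets overlapped: V1R-dominant cells ranged from 0 to 2087 CPM (29 cells, median 550) and V2R-dominant cells from 0 to 667 (13 cells, median 182), with 9 of the 13 below the V1R-dominant lower quartile.

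**Figure D2:**
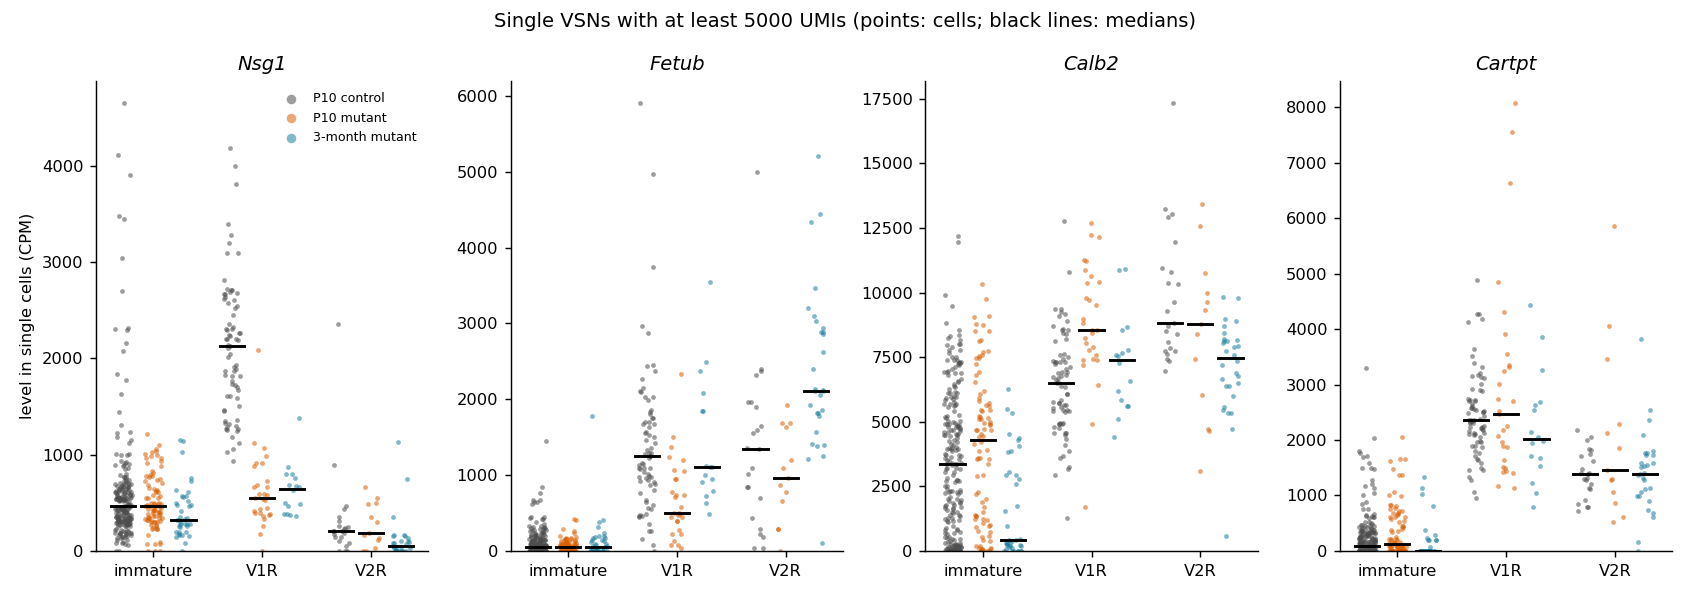
Single cell levels in CPM of cells with at least 5000 UMIs, by VSN class and library, each point 1 cell and each bar the median. For Nsg1, 22 of 23 control V2R-dominant cells lie below the lowest of 75 V1R-dominant cells, and both mutant V1R-dominant clouds sit lower, at medians of 550 and 645 CPM against 2131.

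Among the secretory genes, Chga and Cartpt were lower in V2R-dominant VSNs in every library, without passing 2-fold. Chga stood at 3599, 3356 and 3508 CPM in V1R-dominant and 2674, 2470 and 2462 in V2R-dominant VSNs of these libraries, in the order used above. The ratios of 0.743 (0.700 to 0.788), 0.736 (0.678 to 0.798) and 0.702 (0.653 to 0.754) had overlapping intervals. Cartpt had ratios of 0.588 (0.543 to 0.637), 0.702 (0.642 to 0.765) and 0.697 (0.634 to 0.766). In the control its V2R-dominant cells kept to 714 to 2186 CPM, and 23 of 23 were below the median V1R-dominant cell of 2353. Fetub went the other way in the mutants. By clusters its level was equal in both control sets, at 1337 and 1338 CPM (ratio 1.00, interval 0.918 to 1.09), whereas the V2R-dominant level was the higher in mutants at P10 (1051 against 693 CPM, ratio 1.52, 1.32 to 1.75) and at 3 months (2405 against 1340 CPM, ratio 1.79, 1.63 to 1.98). In the 3-month mutant, 29 of 30 V2R-dominant cells of at least 5000 UMIs were above the median V1R-dominant cell for Fetub. Fstl5 and Gfy differed little, with ratios of 0.908, 0.927 and 0.915 for Fstl5 and 0.783, 0.861 and 0.9503 for Gfy.

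Several of these directions depended on how VSNs were named and which cells were counted. The classes called from Omp and Gap43 UMIs drew on every cell of the lineage clustering. They thus included sub-clusters left out elsewhere as unnamed or as mixed with another class, such as 1 of 27 3-month cells mixed with sustentacular cells. The part of these added cells in the ratios was not tested. By the Omp and Gap43 classes, which held 13, 13 and 29 V2R-dominant and 100, 34 and 46 V1R-dominant cells, Chga stood at 1.022, 0.9395 and 1.213 times, so that it was no longer the lower in V2R-dominant VSNs of the control and at 3 months. Fstl5 (1.163, 1.235 and 1.442 times) and Gfy (1.087, 1.074 and 1.357 times) turned above 1 in every library, while Cartpt stayed below 1, at 0.8735, 0.9057 and 0.9423 times. Fetub was higher in V2R-dominant VSNs of the control as well, at 1.553 times, next to 1.477 and 2.962 times in the mutants. Nsg1 remained past 2-fold in the control (0.2644 times) and at 3 months (0.2748 times).

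Calb2 was the only gene of the set higher in control V2R-dominant VSNs beyond counting error in the classes named by clusters. It stood at 9756 CPM (9488 to 10029) there against 6467 (6346 to 6589) in V1R-dominant VSNs, a ratio of 1.51 (1.46 to 1.56). The 23 deeply read V2R-dominant cells ranged from 6981 to 17324 CPM, and 0 of them lay below the median V1R-dominant cell of 6501. In the mutants this difference was small, at 0.982 times (0.939 to 1.03) at P10 and 1.07 times (1.02 to 1.13) at 3 months. Uchl1 had ratios of 0.831 (0.776 to 0.889), 0.962 (0.874 to 1.06) and 1.01 (0.913 to 1.11). By the Omp and Gap43 classes Calb2 was higher in V2R-dominant VSNs of every library, at 1.733, 1.233 and 1.689 times, and Uchl1 stood at 1.062, 1.15 and 1.637 times.

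**Figure D3:**
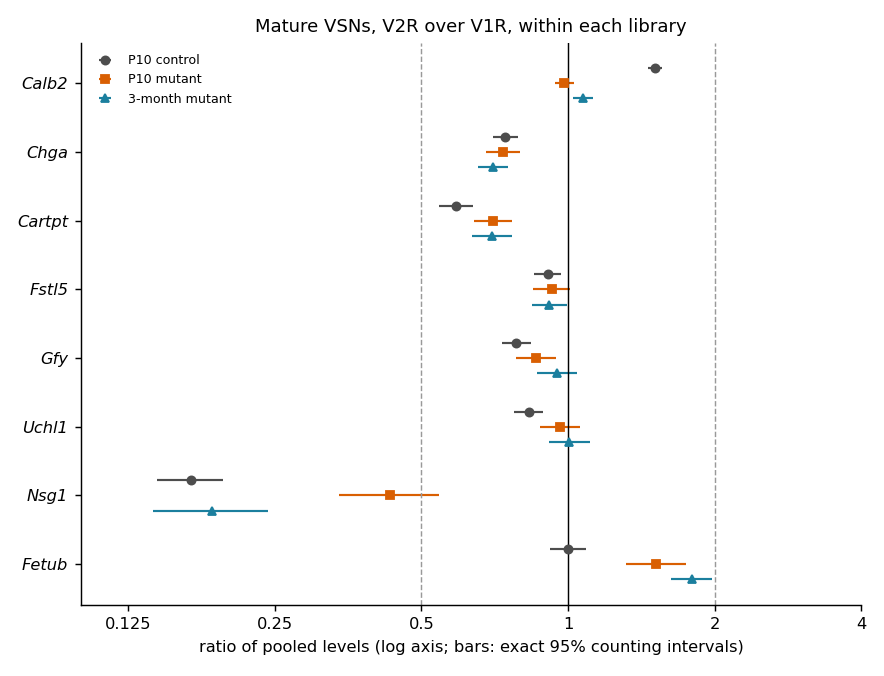
Ratio of pooled levels in V2R-dominant over V1R-dominant mature VSNs (log axis) for each gene, a marker for each library and exact 95% counting intervals as bars, with dashed lines at 2-fold. Nsg1 lies beyond the lower dashed line in every library, Calb2 is high in the P10 control alone at 1.51, and Fetub moves from 1.00 in the control to 1.79 in the 3-month mutant.

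Some of these offsets, but not that of Cartpt in the control, were also seen in immature VSNs. Immature VSNs were split by the family of their receptor UMIs into 42 V2R and 83 V1R cells in the control, 19 and 29 in mutants at P10 and only 5 and 8 at 3 months. Nsg1 was lower in the V2R cells already, at 0.602 times (0.520 to 0.695) in control VSNs and 0.671 times (0.544 to 0.824) in mutant VSNs at P10. In the control this came to 439 against 729 CPM, and the mature sets stood at 335 against 1994 CPM, so the levels were further apart on the V1R than on the V2R side. Chga was lower too, at 0.628 (0.554 to 0.709) and 0.787 times (0.674 to 0.917), and Calb2 was higher in the control at 1.25 times (1.197 to 1.31) and equal in the P10 mutant at 1.00 times (0.943 to 1.06). Cartpt stood at 1.03 times (0.869 to 1.22) in the control and 0.804 times (0.664 to 0.969) in the P10 mutant. Fetub was higher in the V2R cells of the control at 1.85 times (1.37 to 2.50), with 86 and 96 UMIs, although both mature sets were equal. With 3 to 199 UMIs in the V1R cells, the 3-month split was too thin to order the genes. Chga went the other way there, at 1.61 times (1.11 to 2.37) with 80 and 46 UMIs. Nsg1 stood at 0.891 times (0.500 to 1.59) and Calb2 at 1.28 times (1.06 to 1.54).

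The comparison of the P10 mutant with the P10 control asked how the 8 genes stood when Tfap2e was present in V1R-dominant VSNs. Nsg1 was the 1 gene of 8 past 2-fold in V1R-dominant VSNs, where 4.64% of all genes were past 2-fold. It stood at 637 CPM in the mutant and 1994 in the control, 0.320 times (0.289 to 0.352). By single cells the mutant median of 550 CPM was below the lowest of the 75 control cells (936). The control and mutant cells came from different sub-clusters in the main, as given above, but in the shallow sub-cluster (median 2063 UMIs) that held 49 control and 17 mutant mature cells Nsg1 also stood at 1733 CPM in the control against 287 in the mutant, with 182 and 11 UMIs. In V2R-dominant VSNs the difference was within counting error (275 against 335 CPM, 0.819 times, 0.625 to 1.07), and in immature VSNs Nsg1 was 0.765 times (0.706 to 0.828). The immature value depended on which cells were counted. It was 0.858 times (0.788 to 0.934) without cells with olfactory receptor UMIs. Without the sub-cluster led by olfactory neuron genes it was 1.01 times (0.910 to 1.13). That sub-cluster held 48 control and 27 mutant cells, against 23 and 11 immature cells with olfactory receptor UMIs.

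Fetub was lower in mutant V1R-dominant VSNs as well, at 693 against 1337 CPM (0.519 times, 0.470 to 0.572), just short of the 2-fold limit, and at 0.478 times past it when the cell with the most UMIs was left out of each set. It was 0.786 times (0.687 to 0.897) in V2R-dominant and 0.561 times (0.449 to 0.696) in immature VSNs, where it came to 0.881 times (0.679 to 1.13) without that sub-cluster. Cartpt was higher in each of the 3 mutant sets, at 3029 against 2432 CPM in V1R-dominant VSNs (1.25 times, 1.18 to 1.31), 2125 against 1431 in V2R-dominant VSNs (1.48 times, 1.34 to 1.65) and 423 against 272 in immature VSNs (1.55 times, 1.41 to 1.71). In the V2R-dominant set 1 of the 14 mutant cells held 28.0% of its Cartpt UMIs. The Cartpt medians of cells with at least 5000 UMIs were closer in mature VSNs. They stood at 2472 against 2353 CPM in V1R-dominant, 1462 against 1391 in V2R-dominant and 119 against 85.2 in immature VSNs. The highest V1R-dominant cell was at 8072 CPM in the mutant and 4880 in the control. Calb2 was higher in V1R-dominant VSNs at 9176 against 6467 CPM (1.42 times, 1.38 to 1.46), which placed it near the level of V2R-dominant VSNs in both libraries. Chga, Fstl5, Gfy and Uchl1 stayed between 0.827 and 0.932 times in V1R-dominant VSNs. None of the 8 genes was past 2-fold in V2R-dominant VSNs, where 2.62% of all genes were, nor in immature VSNs, where 2.19% were.

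In summed markers of other cells the control V1R-dominant set held 0.169% of its UMIs and the mutant set 0.0817%, and the 6 mast cell markers alone reached 391 CPM in the control and were all at 0 in the mutant. Their part in these differences was not tested, although Nsg1 stood at 0.318 times when cells with over 1% of such UMIs were left out.

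The comparison of the 3-month with the P10 mutant held 2 genes past 2-fold in V2R-dominant VSNs and 2 in immature VSNs, where 8.38% and 9.64% of all genes were past 2-fold. In V2R-dominant VSNs Fetub was the higher at 3 months, 2405 against 1051 CPM (2.29 times, 2.03 to 2.58), and Nsg1 the lower, 111 against 275 CPM (0.406 times, 0.292 to 0.561). The medians of deeply read cells went the same way, from 967 to 2115 CPM for Fetub and from 182 to 47.9 for Nsg1, although the P10 set held only 13 such cells. Of all V2R-dominant VSNs, 31 of 65 at 3 months and 8 of 14 at P10 came from the same sub-cluster, and 28 and 1 from a shallow one (median 880 UMIs). Fetub was higher in V1R-dominant VSNs as well, at 1340 against 693 CPM (1.93 times, 1.71 to 2.18), next to 1337 CPM in the P10 control. None of the 8 genes was past 2-fold there, against 8.49% of all genes. Nsg1 was the same within counting error in V1R-dominant VSNs at both ages, 601 and 637 CPM (0.943 times, 0.806 to 1.10). Cartpt was lower at 3 months in V1R-dominant (0.665 times, 0.613 to 0.720) and V2R-dominant VSNs (0.660 times, 0.596 to 0.731), while Chga did not differ beyond counting error in either (1.05 times, 0.979 to 1.12, and 0.997 times, 0.914 to 1.09). The Cartpt medians of deeply read cells stood at 2013 against 2472 CPM in V1R-dominant but 1394 against 1462 in V2R-dominant VSNs.

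In immature VSNs Calb2 and Cartpt were lower at 3 months. Calb2 stood at 1760 against 4222 CPM (0.417 times, 0.389 to 0.446) and Cartpt at 139 against 423 CPM (0.328 times, 0.255 to 0.416). Gfy followed at 330 against 578 CPM (0.571 times, 0.485 to 0.671), and Uchl1 stood at 1586 and 1648 CPM (0.962 times, 0.890 to 1.04), or 1317 and 1667 CPM without the cells with olfactory receptor UMIs (0.790 times, 0.718 to 0.868). Of the 39 deeply read 3-month immature cells, 35 lay below the lowest 3-month V1R-dominant cell for Calb2. Over all genes the median difference between the ages was -0.16 on the log2 scale in immature, -0.12 in V1R-dominant and -0.07 in V2R-dominant VSNs, and these ratios are not corrected for it. Of the 80 immature cells at 3 months 38 came from a shallow sub-cluster (median 1180 UMIs), against 15 of 140 at P10. The sub-cluster led by olfactory neuron genes and another with high Calb2 and Cartpt (5744 and 6537 CPM of Calb2, 721 and 634 CPM of Cartpt at P10) held 27 and 16 of the P10 cells but 8 and 3 at 3 months. Within the shallow sub-cluster Calb2 stood at 1553 CPM at 3 months against 2097 at P10, with 2 and 1 UMIs of Cartpt. In 2 deeper ones Calb2 stood at 1539 against 3574 CPM and 111 against 151 CPM, and Cartpt at 64.1 against 122 CPM and 15.8 against 14.6 CPM (2 and 3 UMIs). The part of this makeup in the pooled ratios was not tested, beyond that without the sub-cluster led by olfactory neuron genes Calb2 stood at 0.447 times (0.410 to 0.487) and Cartpt at 0.375 times (0.264 to 0.521). Without shallow sub-clusters Calb2 stood at 0.4003 times, and by the Omp and Gap43 classes it was no longer past 2-fold, at 0.611 times. The higher share of gland and plasma cell genes at 3 months moved with these differences and its part was not tested, beyond that without cells with over 1% of UMIs in markers of other types Fetub in V2R-dominant VSNs was 2.225 times and Calb2 in immature VSNs 0.4003 times.

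**Figure D4:**
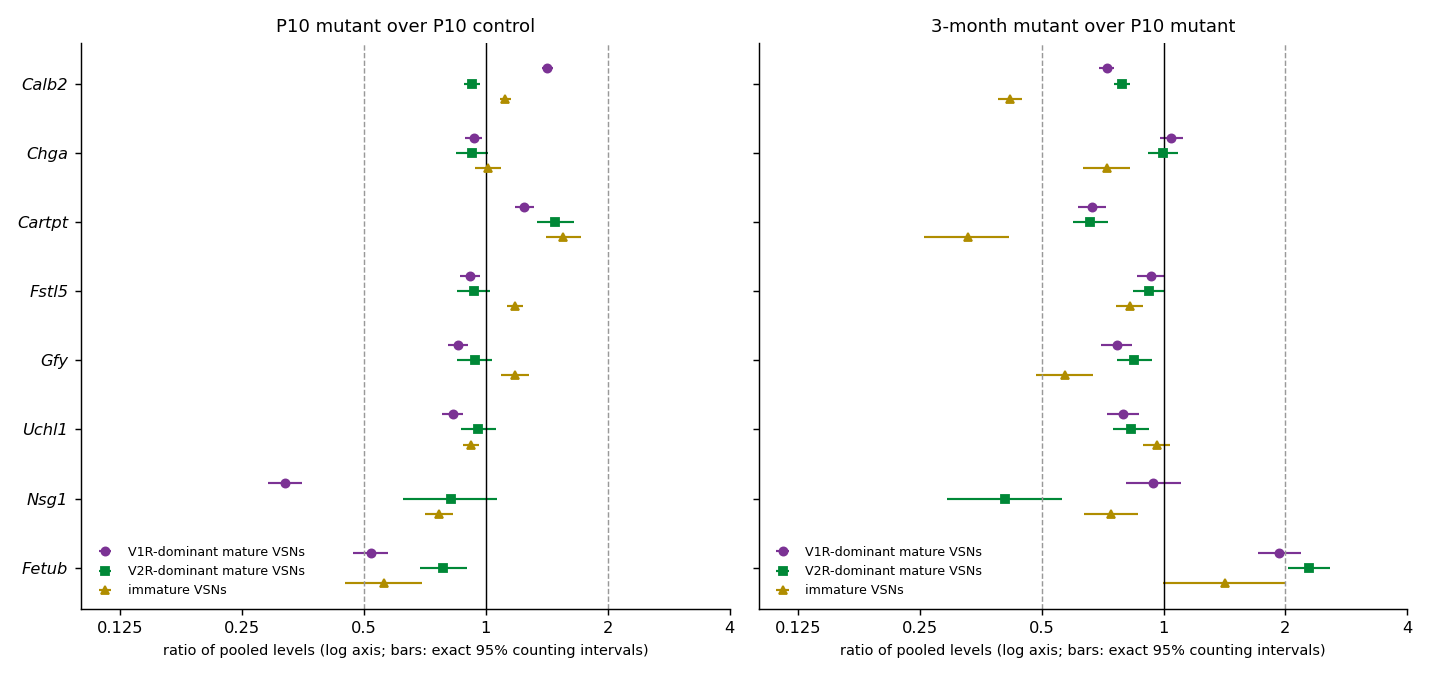
Ratios of pooled levels between libraries (log axis), the P10 mutant over the P10 control at left and the 3-month over the P10 mutant at right, with a marker for each VSN set, exact 95% counting intervals as bars and dashed lines at 2-fold. At left V1R-dominant Nsg1 is past 2-fold at 0.320, and at right V2R-dominant Fetub (2.29) and Nsg1 (0.406) and immature Calb2 (0.417) and Cartpt (0.328) are.

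Across all classes with at least 10 cells, both mature classes were highest for 7 of the 8 genes in every library, which follows from how the genes were chosen. The order below them is a description too, since the choice drew on levels in the same libraries. Immature and both mature VSN classes were the 3 highest in 22 of the 24 pairs of gene and library, and the exceptions were Nsg1 and Fetub at 3 months. For Nsg1 the 3-month order was V1R-dominant (601 CPM), immature (383), fibroblasts (210, 1312 UMIs in 595 cells), V2R-dominant VSNs (111) and osteoblasts (101), and the intervals of V2R-dominant VSNs and osteoblasts overlapped. Fibroblasts of the P10 control and mutant stood at 109 and 97.5 CPM. Non-neuronal cells with a name held 11.04%, 25.9% and 59.5% of all Nsg1 UMIs in the same order of libraries as above.

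Fibroblasts held Fetub above the level of macrophages in the 3-month library. It stood at 147 CPM there (138 to 157, 918 UMIs in 595 cells) against 3.44 and 2.41 CPM in the P10 control and mutant (14 and 9 UMIs), with macrophages and monocytes at 3.13 CPM in the 3-month library. After thinning to 1000 UMIs, 12.96% (10.4 to 15.9%) of 3-month fibroblasts held Fetub, against 0.138% (0.00349 to 0.765%) of macrophages and monocytes, with unthinned median depths of 9625 and 4628 UMIs. Solitary chemosensory or tuft cells stood at 238 CPM (67 UMIs in 27 cells). Calb2 was seen in sustentacular cells, the supporting cells of the epithelium, at 138, 133 and 51.8 CPM, and after thinning in 10.7% (7.73 to 14.2%) of the control cells. The other genes were low outside the lineage, at 4.40 to 30.6 CPM over all named non-neuronal cells for Chga, Cartpt, Fstl5, Gfy and Uchl1.

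Not every neuron could be placed. Cells of lineage sub-clusters that carried over 15% of another class, called mixed here, numbered 211, 64 and 96 and held between 13.7 and 47.6% of the UMIs of a gene. The levels above are therefore those of the cells that could be named. The ratios by Omp and Gap43 classes are the exception, since they also counted mixed and unnamed cells of the lineage.

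Over 56 points, each a cell class of at least 20 cells in 1 library, Chga and Gfy had the most similar pattern of any pair of the 8 genes (Pearson r = 0.99 of log2 CPM with a pseudocount of 10), and Nsg1 and Fetub the least similar (r = 0.71). The points share libraries and depth, and these values are descriptions. Among 7997 genes, those most like each member were Eef1a2, Rd3 and Chga for Calb2, Gfy, Umodl1 and Eef1a2 for Chga, Eef1a2, Omp and Umodl1 for Cartpt, Mapk8ip2, Chga and Snap25 for Fstl5, and Chga, Umodl1 and Eef1a2 for Gfy. Uchl1 was most like Stmn3, Rundc3a and Celf3, with r from 0.95 to 0.97. Nsg1 stood apart with Pbx3, Atf5 and Pygo1 (0.91 to 0.92), as did Fetub with 1700012B09Rik, 4930458D05Rik and Wdr7, the first of them at 0.93.

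Related genes were followed from lists of dense-core granule and peptide processing (18 genes), calcium-binding proteins (18), neuropeptides (12) and relatives of the 8 genes (10). In the control, 0 of 11 measured granule genes were higher and 4 were lower in V2R-dominant than in V1R-dominant VSNs, with a median ratio of 0.655 (9.2% of all genes were past 2-fold in that comparison): Chgb (chromogranin B, 0.322 times), the prohormone convertase Pcsk1 (0.371) and its inhibitor Pcsk1n (0.275), and Resp18 (0.328). In the P10 mutant 0 of 8 were past 2-fold, with a median ratio of 0.812 (all genes 4.17%), and at 3 months 3 of 8 were lower (all genes 8.08%), namely Pcsk1n (0.278), Resp18 (0.361) and the convertase chaperone Scg5 (0.500), at a median of 0.586. The granule genes with the most UMIs in mature VSNs were Cpe, Scg3, Scg5 and Syt4. Of 8 measured calcium-binding genes 3 were lower in control V2R-dominant VSNs, at a median ratio of 0.637: Scgn (secretagogin, 0.243 times), Hpcal1 (0.457) and Pvalb (parvalbumin), with 1 UMI in 26 V2R-dominant cells against 239 in 109 V1R-dominant cells. In the P10 mutant 1 of 8 was lower, Pvalb at 0.353 times, and at 3 months 0 of 8 were past 2-fold. Calb2 was thus higher where 3 other calcium-binding genes were lower.

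In mutant over control V1R-dominant VSNs at P10, 1 of 11 granule genes was lower (Chgb, 0.391 times), 1 of 8 calcium-binding genes was lower (Hpcal1, 0.452) and the 1 relative measured, Uchl5, was lower (0.421), against 4.64% of all genes past 2-fold. In V2R-dominant VSNs 1 of 7 granule genes was higher (Resp18, 2.50 times) and 0 of 6 calcium-binding genes were past 2-fold, against 2.62% of all genes. From P10 to 3 months Pvalb was higher in V1R-dominant (322 against 90.4 CPM, 3.56 times) and V2R-dominant VSNs (176 against 31.9 CPM, 5.52 times), the only gene of both lists past 2-fold there among 8 granule and 8 calcium-binding genes in V1R-dominant and 6 and 8 in V2R-dominant VSNs, where 8.49% and 8.38% of all genes were past 2-fold. In immature VSNs 7 of 12 granule genes were past 2-fold between the mutant libraries, 5 higher and 2 lower, at a median ratio of 1.06, against 9.64% of all genes. The lower ones were Cpe (0.387 times) and Rab3d (0.208). The 5 higher ones were Pcsk1n (7.99 times), Scg2 (68 against 0 UMIs), Pcsk2 (2.74 times), Cadps2 (2.53) and Resp18 (2.69). The 9 cells with olfactory receptor UMIs held 240 of 260 UMIs of Pcsk1n, 67 of 68 of Scg2, 29 of 31 of Resp18, 30 of 52 of Pcsk2 and 13 of 24 of Cadps2. Without such cells in both libraries 4 of the 5 were no longer 2-fold higher and Scg2 was left with 1 against 0 UMIs, with Pcsk1n at 50.2 against 61.4 CPM, Resp18 at 5.02 against 20.03, Pcsk2 at 55.2 against 30.05 and Cadps2 at 27.6 against 17.4, while Cpe (181 against 446 CPM) and Rab3d (7.52 against 46.7 CPM) were still lower. In mutant over control immature VSNs Ptprn (0.311 times), Caly (0.475) and S100a5 (1 against 909 UMIs) were lower, against 2.19% of all genes past 2-fold, and 908 of those 909 UMIs lay in 23 such cells. No neuropeptide gene of the list, which leaves out Cartpt, reached 50 UMIs in the sets of any mature comparison.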

How the data were processed

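Cells of VNOs dissociated with papain and frozen were profiled with 10x Genomics 3′ v3.1 chemistry. The authors aligned the reads to mm10 with Cell Ranger, version 4.0.0 per the labels and 6.0.1 per the header of the 3-month matrix, and deposited UMI counts per gene and barcode, with no normalization. The deposited barcodes numbered 8202, 8864 and 10293, with 83870584, 80760046 and 70074800 UMIs. Barcodes with 200 to 9000 genes and at most 10% mt- UMIs were kept. Cells were clustered with leidenalg 0.10.2 on a neighbour graph (2000 variable genes, 30 principal components, Leiden resolution 1). The lineage was clustered again with 15 components and resolution 2. The 8 genes, the listed genes, receptors and Tfap2e were left out, and clusters were named from markers of 26 classes. Doublets, scored with Scrublet in scanpy 1.11.5, were kept in and removed in an alternative. Counts were pooled as CPM, with exact Poisson intervals for levels, conditional exact binomial intervals for ratios and Clopper-Pearson intervals for shares, all at 95%. UMIs of 1 cell are not independent samples, so intervals cover counting error only. A gene was past 2-fold at a ratio of at least 2 or at most 0.5, among genes with at least 50 UMIs. The members and lists were chosen with earlier results of these data known. All 8 members are named, with listed genes past 2-fold, the 4 granule genes with the most UMIs (those of the calcium-binding list are not reported here), and the 3 genes most like each member. Gene positions are from GENCODE M21. Scripts were tested on simulated counts.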

Additional observations from a re-analysis of the deposited data

Results flagged for a closer look

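For 3 of the 8 genes the P10 mutant stood above the P10 control in one set of VSNs and below it in another, with both counting intervals clear of equality, and the difference between the sets was not tested. Calb2 was at 1.419 times the control level in V1R-dominant and 1.117 times in immature VSNs but at 0.9235 times in V2R-dominant VSNs. Fstl5 was at 1.18 times in immature and 0.9144 times in V1R-dominant VSNs. Gfy was at 1.181 times in immature and 0.8542 times in V1R-dominant VSNs. With classes called from Omp and Gap43 UMIs the immature ratios were 0.9824 for Calb2, 0.9549 for Fstl5 and 0.8748 for Gfy, so the higher immature level was not seen there.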

How the results depend on the processing

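Of 90 counts of genes past 2-fold under an alternative, 81 were within 1.5 times of the reported count. With at most 5% mt- UMIs Fetub raised the count from 0 to 1 in immature VSNs between genotypes at P10 and in V1R-dominant VSNs between ages. With the mean of per-cell CPM the count was 1 in V1R-dominant VSNs between ages and 2 for V2R-dominant over V1R-dominant VSNs at 3 months (with Fetub). Without the cell with the most UMIs of a gene V1R-dominant VSNs gave 2 between genotypes and 1 between ages, each by Fetub. Classes by Omp and Gap43 UMIs also drew on mixed and unnamed lineage cells. With them the count was 0 for V2R-dominant over V1R-dominant VSNs of the P10 mutant, 2 at 3 months (with Fetub at 2.962 times), and 1 in immature VSNs between ages. The causes were not tested. The 8 ratios past 2-fold gave 78 values under alternatives, of which 76 stayed past 2-fold and 0 changed direction. A minimum of 200 UMIs moved the share of all genes past 2-fold from 2.19 to 1.05% between genotypes and from 9.64 to 5.19% between ages in immature VSNs. Alternatives without olfactory receptor cells, without shallow sub-clusters and without the immature sub-cluster led by olfactory neuron genes were chosen after seeing the data. The receptor threshold does not bear on immature VSNs. With 1 library per group no replicate could be left out, and no paired analysis was possible because no group had a second library. Sets of 14 to 38 mutant cells and shallow 3-month VSNs limit the precision, and Scrublet marked 1, 3 and 4 mature VSNs as doublets.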

Other observations

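Some cells named immature VSNs carried more olfactory than vomeronasal receptor UMIs (at least 3 olfactory receptor UMIs): 23 of 316 control cells at P10, 11 of 140 mutant cells at P10 and 9 of 80 at 3 months. In the control their Nsg1 level was 1295 CPM (524 UMIs) against 595 in the other immature cells, and their Fetub level 294 against 94.3 CPM. Gfy stood at 816 against 448 CPM, while Calb2 (1967 against 4010) and Cartpt (111 against 293) were lower. In the mutants Nsg1 stood at 585 CPM in 11 such cells at P10 (69 UMIs) and 530 in 9 at 3 months (79 UMIs). S100a5, a calcium-binding gene of olfactory neurons, held 908 UMIs in the 23 control cells and 1 each in those of the mutants.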
